A study of Mus musculus with 4 samples.

Results

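T cells with natural killer (NK) receptors were examined in the lungs of mice given papain or buffer. Members were chosen by the raw UMIs of 11 genes. A cell was a member if it carried at least 1 unique molecular identifier (UMI) of Cd3e, Cd3d or Cd3g, at least 1 of Trac and at least 1 of Klrb1c or Ncr1, with none of Trdc, Cd8a, Cd8b1, Foxp3 or Cd79a. Trac encodes the constant part of the T cell receptor alpha chain, the Cd3 genes its signalling partners, Klrb1c the NK receptor NK1.1 and Ncr1 the activating receptor NKp46. The rule found 115 members among 27544 cells, which were those of 28805 barcodes with over 200 genes detected and a mitochondrial share of UMIs under 15%.

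All mice were C57BL/6 with floxed Ift20 alleles (Ift20 f/f). WT mice carried no Cre, and KO mice carried CD4-Cre, which acts in developing T cells. Papain, a cysteine protease used as an inhaled allergen, was given into the nose at 25 µg on 3 days in a row and again on day 14, and lungs were taken on day 15. Controls were given DPBS (buffered saline) instead. From sorted live cells with CD45.2, a leukocyte marker, 1 library each was made of the groups called DPBS WT, DPBS KO, Papain WT and, last, Papain KO, and values listed "in library order" follow this sequence. The number of mice behind a library is not given in the sources used here.

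T cells that share receptors with NK cells include invariant NKT cells, which recognise lipids on CD1d through a near-invariant receptor, and conventional T cells that gained NK receptors after activation. NKT cells are divided into type 1 cells with T-bet, type 2 cells with high GATA3 and PLZF, and type 17 cells that make IL-17. They release cytokines within hours of a stimulus, and in the lung they are known for early responses to inhaled antigens.

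The members numbered 42, 17, 33 and 23 in library order, so DPBS KO had the fewest. Their summed UMIs were 368817, 120030, 271803 and 166043, from libraries with 53854420 to 75675956 UMIs each. The median member held 7504, 6302, 6014 and 7227 UMIs, against 5499 to 6419 in CD8-negative T cells without NK receptors and 5246.5 to 5732 in NK cells. The deepest single member gave 7.24%, 11.3%, 15.8% and 9.27% of the members' UMIs. No barcode of a member was shared between libraries, although each pair of libraries shared 7 to 16 barcodes.

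The evidence behind the membership of single cells was thin in part. Klrb1c alone brought in 92 members, both receptors 19, and Ncr1 alone 4. A single NK receptor UMI decided 44 memberships, and 18 members had 1 Trac UMI. Scrublet, which scores cells for likeness to simulated doublets, called 3, 3, 1 and 0 members in library order, or 7.14%, 17.6%, 3.03% and 0%, against 1.36% to 4.07% of CD8-negative T cells without NK receptors. In both DPBS libraries the members' share was thus above that of the other T cells. The gate genes therefore serve only to describe the members, and none of them was tested. Of the gate genes, Klrb1c, Ncr1 and Trac lie on different chromosomes (GRCm38, GENCODE M21). Klrb1c is at chr6:128778485-128789215 on the minus strand, Ncr1 at chr7:4337724-4345164 on the plus strand and Trac at chr14:54220521-54224206 on the plus strand. Other gate genes lie close together, such as Cd3g, Cd3d and Cd3e on chromosome 9.

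The label was checked against marker lists. The genes of the rule were left out of the T cell and NK cell lists here, since the rule sets their values. The 7 other T cell markers summed to 2185 to 2987 UMIs per 1000000 (CPM) in the members, to 2428 to 2739 CPM in T cells without NK receptors and to 612 to 845 CPM in NK cells. The 7 other NK cell markers summed to 1873 to 2543 CPM in the members, to 411 to 646 CPM in the other T cells and to 10839 to 13909 CPM in NK cells. On these genes the members' T cell sum overlapped that of the other T cells, and their NK sum lay between both comparison populations. Of the 4 gamma-delta markers Trdc was at 0 by the rule and only Tcrg-C1, a gamma chain constant region gene, had UMIs in the members. It was at 29.8, 8.33, 22.1 and 42.2 CPM in library order, against 2.45 to 4.66 CPM in the other T cells and 0 to 2.89 CPM in NK cells. The members were above the other T cells in every library, in DPBS KO on 1 UMI. All 3 basophil and mast cell markers were at 0. Monocyte and macrophage markers reached 1654, 433, 780 and 139 CPM in the members in library order, and alveolar macrophage markers 597, 133, 121 and 48.2 CPM. The former were at 1189 to 2577 CPM in the other T cells and 3486 to 10790 CPM in NK cells. The latter were at 355 to 1920 CPM in the other T cells and 542 to 12407.5 CPM in NK cells. Both sums were thus lowest in the members in every library. The cells with more than 20 UMIs of such other-cell markers were 5 of the 115 members, 222 of 3977 other CD8-negative T cells and 25 of 192 NK cells, and values without them are given for genes whose call they changed.

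A further description used 5 effector genes that the rule did not read, Nkg7, Ccl5, Xcl1, Klrd1 and Klrk1, which were picked with earlier results of these data known. At least 3 of the 5 were detected in 98 of 115 members (85.2%), in 149 of 3977 T cells without NK receptors (3.75%) and in 168 of 192 NK cells (87.5%). Within libraries this held for 36 of 42, 16 of 17, 25 of 33 and 21 of 23 members in library order. Only 6 members showed none of the 5.

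In the WT libraries, members made up 0.516% of kept cells after DPBS (95% exact interval 0.372 to 0.696) and 0.413% after papain (0.284 to 0.579). In the KO libraries these shares were 0.298% (0.174 to 0.477) and 0.403% (0.256 to 0.605). Of CD8-negative T cells they were 3.57%, 2.08%, 2.61% and 2.76% in library order. The DPBS KO library had the lowest share, and all 4 intervals overlapped. No test between groups could be run, since each group was 1 library. Intervals here and in all ratios between libraries cover only the error of counting. The log2 ratio of shares was -0.79 (95% interval -1.70 to 0.05) for DPBS KO against DPBS WT and -0.03 (-0.87 to 0.78) for Papain KO against Papain WT. Papain against DPBS gave -0.32 (-1.02 to 0.37) in WT and 0.44 (-0.53 to 1.43) in KO. None of these intervals left out 0. That of DPBS KO against DPBS WT did so without the cells that Scrublet called doublets, at -0.999 (-1.99 to -0.09), and with at least 2 NK receptor UMIs per cell, at -1.24 (-2.59 to -0.06). Papain WT against DPBS WT turned to 0.16 when cells were thinned to 2000 UMIs, and Papain KO against Papain WT turned to 0.33 with at least 2 NK receptor UMIs, to 0.24 with at least 2 Trac and 2 Cd3 UMIs and to 0.35 when thinned. The intervals of these ratios held 0.

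Free RNA can put an NK receptor UMI into a droplet of another cell type. Among cells with Cd79a, a B cell gene, and no Cd3 UMI, 0.915%, 0.366%, 0.418% and 0.576% carried a Klrb1c or Ncr1 UMI in library order, at medians of 4031, 4352.5, 4583.5 and 4960 UMIs per cell. The share among CD8-negative T cells, 2.08% to 3.57%, was above this level in every library. Those T cells were deeper, at medians of 5499 to 6419 UMIs without NK receptors. The part of free RNA in the membership was not tested.

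**Figure D1:**
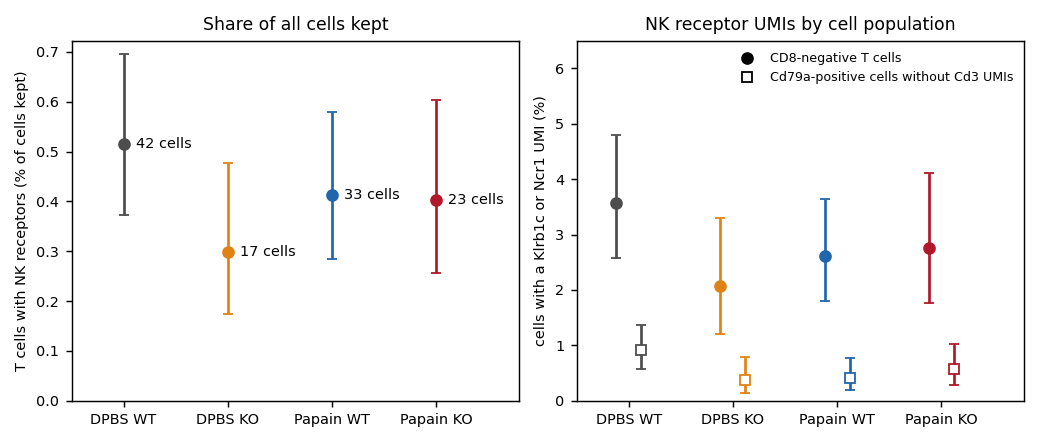
Share of T cells with NK receptors in each of the 4 libraries, with 95% exact binomial intervals for counting error, as percent of kept cells and as percent of CD8-negative T cells (circles) beside the percent of Cd79a-positive cells without Cd3 UMIs that carried an NK receptor UMI (squares). The members run from 0.298% to 0.516% of kept cells with overlapping intervals, and the circles lie above the squares in all 4 libraries.

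Ift20, the floxed gene, encodes an intraflagellar transport protein that also carries cargo to the immune synapse of T cells (chr11:78536361-78541737, plus strand). The study places the deletion at exons 2 and 3, whereas 3′ libraries count the end of the transcript, so a UMI does not show whether the allele was deleted. The members held 33, 6, 18 and 5 Ift20 UMIs in library order, or 89.5, 49.99, 66.2 and 30.1 CPM. Both KO libraries were below both WT libraries. Set against WT, KO members gave a log2 ratio of -0.84 (-2.39 to 0.43) after DPBS and -1.14 (-2.92 to 0.35) after papain, and with the treatments summed it was -1.05 (-2.14 to -0.09), from 11 UMIs against 51. T cells without NK receptors gave -1.31 (-1.61 to -1.02) and -1.46 (-1.75 to -1.18). NK cells, which do not derive from the cells in which CD4-Cre acts, gave -0.42 (-1.39 to 0.45) and 0.46 (-0.47 to 1.44). B cells, in which CD4-Cre does not act either, gave -0.38 (-0.56 to -0.20) after DPBS and 0.12 (-0.03 to 0.27) after papain. In B cells the level in DPBS KO was thus also below that in DPBS WT, while after papain the ratio was negative in both T cell populations and positive in NK and B cells. Within a treatment the members' interval was too wide to place their ratio against any of these populations.

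**Figure D2:**
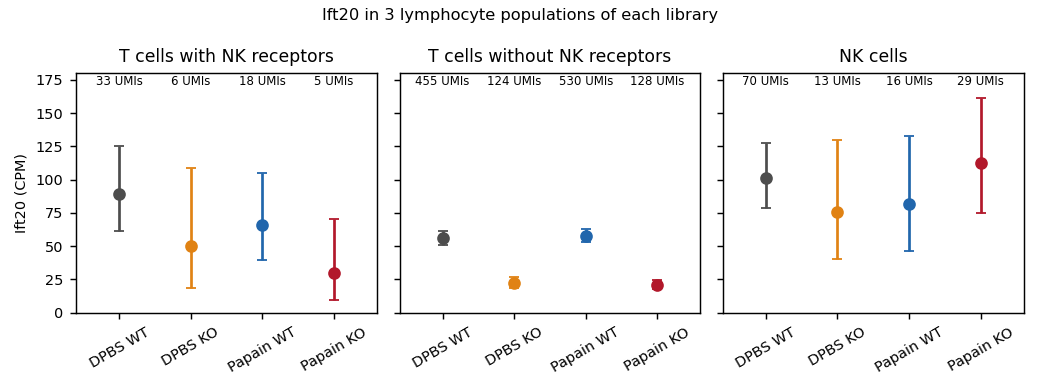
Ift20 level in CPM with 95% counting intervals, for T cells with NK receptors, T cells without them and NK cells in each library, with the number of UMIs at the top. The members' points stand at 89.5 and 66.2 in the WT libraries and at 49.99 and 30.1 in the KO libraries, on 5 to 33 UMIs each.

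Each library's members were summed and compared with the sums of CD8-negative T cells without NK receptors (3977 cells) and of NK cells (192 cells) from the same library, with the library as a block in edgeR's quasi-likelihood test. The 4 libraries differ in genotype and treatment, so the spread in this test is that of the population difference over the 4 conditions. Of 4600 genes tested, 274 (5.96%) were higher and 203 (4.41%) lower in the members than in T cells without NK receptors at an adjusted p under 0.05. The lower genes numbered 97 without DPBS KO and 133 without Papain KO. Against NK cells 410 genes (8.91%) were higher and 411 (8.93%) lower, the latter 216 without cells with UMIs of other cell types. Both comparisons share the members. The median log2 fold change over all genes was -0.01 against the other T cells and 0.01 against NK cells.

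NK receptors outside the rule separated the members most clearly from other T cells. Of 20 tested, 18 were higher in the members, none was lower, and the median log2 fold change was 4.37. Against NK cells 14 of the 20 were lower, none was higher, and the median was -1.90. The median thus lay between both populations, and 6 of the 20 were not called against NK cells. Klra6, a gene of the Ly49 cluster that did not pass the low-count filter, was at 70.5, 33.3, 33.1 and 24.1 CPM in the members and 3.87 to 12.99 CPM in NK cells. It was higher in the members than in NK cells without that filter (2.67, adjusted p = 0.000245), from 43 UMIs against 12.

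Klrk1 encodes NKG2D, an activating receptor for stress-induced ligands. It was at 377, 317, 294 and 458 CPM in the members in library order, at 10.3 to 21.7 CPM in the other T cells and at 459 to 855 CPM in NK cells. The 3 ranges did not overlap, though those of the members and NK cells nearly met, at 458 and 459 CPM. The log2 fold change was 4.52 (SE 0.16, edgeR adjusted p = 6.18e-11) against the other T cells and -0.59 (SE 0.14, adjusted p = 0.00782) against NK cells. The difference from NK cells was no longer called without Papain KO (-0.54, adjusted p = 0.0557). Klre1, a lectin-like receptor that pairs with Klri proteins, was at 247, 258, 188 and 307 CPM in the members, and the log2 fold change was 5.43 (SE 0.23, adjusted p = 5.89e-10) against the other T cells. Klrc1 and Klrc2 encode NKG2A and NKG2C, which pair with CD94, the product of Klrd1. They were higher than in the other T cells by log2 4.67 (SE 0.29) and 4.94 (SE 0.32), and Klrd1 by 2.82 (SE 0.14). Neither Klrc1 nor Klrc2 passed the test against NK cells (adjusted p = 0.132 and 0.067), and Klrc1 did so without cells with UMIs of other cell types (-1.05, adjusted p = 0.0127).

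Ly49 receptors, encoded by the Klra genes, bind MHC class I. Klra7 was higher in the members than in the other T cells by log2 5.02 (SE 0.30) and Klra9 by 5.78 (SE 0.45). Klra genes are near-identical copies whose reads the counting may split or drop, so the share of single members is uncertain. Klrg1, a receptor of terminally differentiated NK and T cells, had a log2 fold change of -3.16 (SE 0.54, edgeR adjusted p = 0.000668) against NK cells. Against the other T cells it was 0.94 (SE 0.70, edgeR adjusted p = 0.501). In UMIs pooled over the 4 libraries, Klra4 had 29 in the members and 589 in NK cells, and Klra8 24 and 490. Their log2 ratios were -3.84 each, beside -3.11 for Klrg1 on this measure.

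Of 9 tested cytotoxic genes, 8 were higher in the members than in other T cells and none was lower, with a median log2 fold change of 2.89. Against NK cells 6 were lower and none higher, with a median of -1.02. Nkg7, a granule membrane protein needed for exocytosis, was at 1033, 1058, 809 and 1174 CPM in the members, 79.7 to 151 CPM in the other T cells and 1777 to 2562 CPM in NK cells. Its log2 fold change was 3.08 (SE 0.19, adjusted p = 3.61e-08) and -1.02 (SE 0.18, adjusted p = 0.000872). Again the members lay between the populations without overlap.

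The granule enzymes themselves were spread unevenly over the members. Gzma, granzyme A, was at 656, 517, 655 and 807 CPM but was detected in only 11.9%, 23.5%, 24.2% and 21.7% of members, whereas 78.3% to 92.9% of NK cells had it, at 4005 to 6174 CPM. It was higher than in other T cells by log2 4.51 (SE 0.38) and lower than in NK cells, at -2.77 (SE 0.34, adjusted p = 3.95e-05). Prf1, which encodes the pore-forming perforin, was at 65.1, 49.99, 132 and 78.3 CPM and gave 2.89 (SE 0.29) against other T cells and -2.74 (SE 0.24) against NK cells. Lamp1, a general lysosome protein, was the 1 cytotoxic gene of the 9 not called against other T cells (-0.58, SE 0.20, adjusted p = 0.0797), and the difference of Lamp1 from NK cells was -0.16 (adjusted p = 0.732) without cells with UMIs of other cell types, against -1.32 with them.

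**Figure D3:**
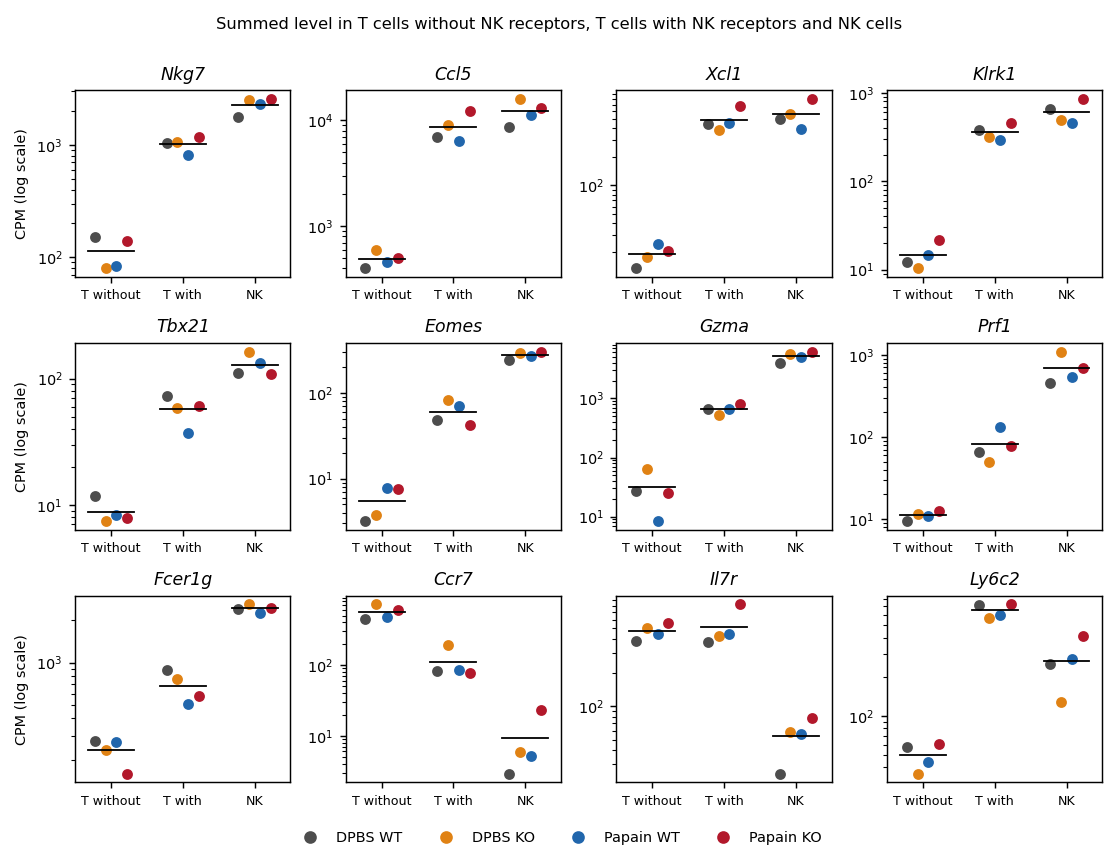
Levels of selected genes in CPM on a log axis, 1 point per library with a line at the mean, for T cells without NK receptors, T cells with NK receptors and NK cells. The members' Nkg7 (809 to 1174) and Klrk1 (294 to 458) lie between the other T cells (79.7 to 151 and 10.3 to 21.7) and NK cells (1777 to 2562 and 459 to 855), while Ly6c2 is highest in the members (567 to 723).

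All 12 genes of the type 1 list were tested, and all 12 were higher in the members than in other T cells, with a median log2 fold change of 3.01, whereas against NK cells 1 was higher, 3 were lower and 8 were not called, with a median of -0.06. The list holds several genes that NK cells also express. Tbx21 encodes T-bet, the regulator of type 1 responses. It was at 73.2, 58.3, 36.8 and 60.2 CPM in the members, 7.41 to 11.8 CPM in other T cells and 108 to 163 CPM in NK cells, a log2 fold change of 2.58 (SE 0.29, adjusted p = 3.48e-05) and -0.94 (SE 0.28, adjusted p = 0.0262). The latter lost its call without DPBS KO, Papain WT or Papain KO (adjusted p = 0.0855, 0.166 and 0.0623), at -0.688 to -0.998. Ifng, the type 1 cytokine interferon gamma, was at 146, 133, 309 and 638 CPM in the members and 17.9 to 47.5 CPM in the other T cells (log2 3.102, SE 0.39, adjusted p = 7.9e-05). The difference of Ifng from NK cells did not pass the test (0.81, SE 0.42, adjusted p = 0.221), and its sign was not the same in all libraries.

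Among secreted factors, 5 of 6 tested cytokines and chemokines were higher than in other T cells and none was lower. Ccl5, a chemokine for T cells and monocytes, was the most abundant, at 7014, 9014, 6387 and 12322 CPM in the members against 399 to 599 CPM in the other T cells. Its log2 fold change was 4.02 (SE 0.14, adjusted p = 6.18e-11), and NK cells, at 8603 to 16013 CPM, were not separated (-0.34, SE 0.12, adjusted p = 0.0755), although they were without Papain KO (-0.48, adjusted p = 0.0173) and without cells with UMIs of other cell types (-0.77, adjusted p = 0.000238). Xcl1, which attracts XCR1-positive dendritic cells, was at 439, 383, 456 and 681 CPM in the members and 13.5 to 24.0 CPM in the other T cells (log2 4.58, SE 0.19, adjusted p = 5.89e-10). Cytokine receptors followed. Il2rb, the beta chain of the IL-2 and IL-15 receptors, was at 634 to 758 CPM against 53.7 to 107 CPM (log2 2.99, SE 0.18), and Il18rap, a chain of the IL-18 receptor, was higher than in other T cells by 3.04 (SE 0.24) and lower than in NK cells (-1.06, SE 0.22).

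Some genes were higher in the members than in both comparison populations, which hold no cells with CD8 UMIs. Of the genes in this paragraph, only Rora was also called higher than in CD8-positive T cells with NK receptors, a comparison given further on. Ly6c2, a surface marker of memory-type T cells, was at 713, 567, 600 and 723 CPM in the members, 35.6 to 60.3 CPM in other T cells and 128 to 414 CPM in NK cells. Its log2 fold change was 3.62 (SE 0.16, adjusted p = 1.29e-09) and 1.49 (SE 0.17, adjusted p = 1.87e-05). Cxcr3, a receptor for interferon-induced chemokines, gave 1.77 (SE 0.28, adjusted p = 0.000583) and 1.98 (SE 0.37, adjusted p = 0.00137). Rora, a nuclear receptor of innate-like and type 17 lymphocytes, gave 1.31 (SE 0.20, adjusted p = 0.0004) and 1.83 (SE 0.25, adjusted p = 9.76e-05). Cxcr6, the receptor for CXCL16 and a marker of NKT and resident T cells (chr9:123806475-123811760, plus strand), gave 1.77 (SE 0.37, adjusted p = 0.00517) and 5.32 (SE 0.74, adjusted p = 0.000104), but in DPBS KO it was lower in the members than in the other T cells. The call against the other T cells was lost without Papain KO (1.35, adjusted p = 0.0662) and with DESeq2 (1.45, adjusted p = 0.347).

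Of the conventional NK cell list, 10 of 12 genes were higher than in other T cells and none was lower, and all 12 were lower than in NK cells (median -2.60). Eomes, a T-box factor of NK and memory CD8 T cells, was at 48.8, 83.3, 69.9 and 42.2 CPM in the members, 3.19 to 7.72 CPM in other T cells and 245 to 306 CPM in NK cells. Its log2 fold change was 3.33 (SE 0.32, adjusted p = 6.07e-06) and -2.08 (SE 0.25, adjusted p = 3.48e-05). Tyrobp and Fcer1g encode the adaptors DAP12 and FcRγ, through which NK receptors signal. Fcer1g was at 889, 766, 508 and 572 CPM in the members and 2255 to 2600 CPM in NK cells (log2 -1.70, SE 0.16), and was higher than in other T cells by 1.43 (SE 0.16). Tyrobp gave 0.66 (SE 0.18, adjusted p = 0.0274) and -2.47 (SE 0.18), and against the other T cells its sign was reversed in Papain WT and its call was lost without DPBS WT, DPBS KO or Papain KO (adjusted p = 0.114, 0.211 and 0.0779). Itgam and S1pr5 were the genes not called against other T cells (adjusted p = 0.177 and 0.404). Itgam was called without Papain KO (1.34, adjusted p = 0.0432) and without cells with UMIs of other cell types (3.15, adjusted p = 0.00128).

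The naive T cell list went the other way, with 8 of 11 genes lower in the members than in other T cells, none higher and a median of -0.76. Against NK cells 9 were higher and none was lower, with a median of 2.20. Dapl1, which had no UMI in NK cells, was at least 8.54-fold higher in the members, which leaves this median where it is. Ccr7, the lymph node homing receptor, was at 81.3, 192, 84.6 and 78.3 CPM in the members, 445 to 719 CPM in other T cells and 2.89 to 23.2 CPM in NK cells. The log2 fold change was -2.52 (SE 0.20, adjusted p = 8.59e-07) against other T cells. Lef1 and Tcf7, transcription factors of naive and memory precursor T cells, fell by 1.10 (SE 0.13) and 0.76 (SE 0.16) on the log2 scale against the other T cells. Igfbp4 and Dapl1, transcripts of naive T cells, fell by 3.72 (SE 0.35) and 2.83 (SE 0.33).

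Of 14 tested T cell receptor signalling genes outside the rule, 4 were lower in the members than in other T cells, none was higher and 10 were not called, beside 4.41% of all genes called lower. The median was -0.15, beside -0.01 for all genes, and 11 of the 14 were higher than in NK cells. Trbc2, the beta chain constant region, was at 1410, 1391, 1038 and 1903 CPM in the members and 1246 to 1526 CPM in the other T cells (log2 -0.11, SE 0.14, adjusted p = 0.722). The 4 lower genes were Cd4 (-1.73, SE 0.25), Themis (-1.31, SE 0.24), Lat (-0.94, SE 0.17) and Cd247 (-0.92, SE 0.17). Cd4 was detected in 19.0%, 11.8%, 24.2% and 13.04% of the members and in 52.6% to 64.5% of the other T cells, so most members had neither a Cd4 nor, by the rule, a Cd8 UMI. NK cells were required to lack Trac and Cd3, which fixes part of this contrast. Over the 4 libraries Cd4 (46 UMIs) was at least 21.8-fold higher in the members than in NK cells, where it had no UMI, and Themis (25 UMIs) at least 11.9-fold higher, with 3 UMIs over the 4 NK sums as the floor.

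**Figure D4:**
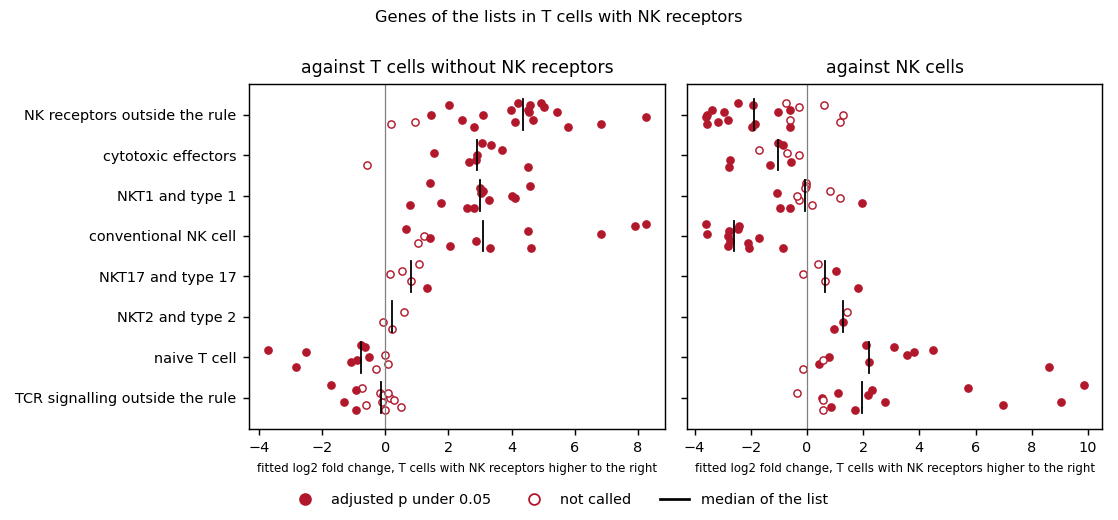
Log2 fold changes of the tested genes of each list in T cells with NK receptors, against CD8-negative T cells without NK receptors and against NK cells, 1 point per gene, filled where the edgeR adjusted p was under 0.05, with a line at the list's median. NK receptor, cytotoxic and type 1 lists have medians of 4.37, 2.89 and 3.01 against the other T cells, and the naive list lies at -0.76 there and at 2.20 against NK cells.

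The genes with the largest changes that the lists did not all hold were of both kinds. Samd3 was higher than in other T cells by log2 4.64 (SE 0.42) and Spry2, a feedback inhibitor of receptor tyrosine kinase signalling, by 4.62 (SE 0.26). Cma1, a chymase gene, had 19 UMIs in the members and 1 in the other T cells, a log2 ratio of 9.22 with a counting interval of 6.56 to 14.59. The lowest against other T cells included St8sia6, a sialyltransferase (-3.63, SE 0.38), and Pdlim4, a PDZ and LIM domain protein (-3.29, SE 0.46). The remaining 5 of the lowest 8, S100a9, Clec4n, Hebp1, Cxcl2 and Cd36, are known from myeloid cells, and they no longer passed the low-count filter once cells with more than 20 UMIs of other-cell markers were left out. Against NK cells the lowest 8 were Clec4n, Spp1, Ctsk, Mgst1, S100a9, As3mt, Hebp1 and Cd36, of which all but As3mt are known from macrophages or other myeloid cells. As3mt, an arsenic methyltransferase, had 2 UMIs in the members and 74 in NK cells.

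Invariant NKT identity was covered in part. Of 9 tested genes of that list, 4 were higher than in other T cells, none was lower and 5 were not called, with a median of 0.17. Id2, an inhibitor of E proteins in innate-like lymphocytes, gave 1.11 (SE 0.15, adjusted p = 0.000113). Zbtb16, which encodes PLZF, had 11, 1, 1 and 3 UMIs in the members in library order and was detected in 16.7%, 5.88%, 3.03% and 13.04% of them. In other T cells it was detected in 0.976% to 1.75% of cells. Trav11, the alpha segment of the invariant receptor, had no UMI, and Traj18, its joining segment, had 1 UMI in the members, from Papain KO, and 2 in the other T cells. Only 12 of 115 members carried any Trav UMI and 13 any Trbv UMI, since 3′ libraries rarely reach the variable segments. The invariant receptor could therefore not be assessed at this depth. Cd44, an activation marker, was at 203, 167, 202 and 181 CPM in the members and was not called against other T cells (-0.01, SE 0.15, adjusted p = 0.985), but was higher, at 1.20 (adjusted p = 1.21e-05), without the cells that held UMIs of other cell types.

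Few genes of the type 2 and type 17 lists had enough UMIs to be tested. None of the 3 tested type 2 genes was called against other T cells, with Gata3 at 0.22 (SE 0.20, adjusted p = 0.598). Il13 had no UMI in the members, and Il4 had 2, 0, 0 and 7. Of 5 tested type 17 genes only Rora was called. Il17a UMIs, 27 in all, came from 1 cell of Papain WT.

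Tbx21 and Eomes encode T-box factors, and the core AGGTGT of their binding motif was searched on both strands in the 250 bases before the start of each gene (RefSeq, GRCm38.p6). It occurred in 11.99% of 27025 promoters. Among the genes higher in the members than in other T cells it occurred in 3 of 7 cytotoxic promoters, in 0 of 14 NK receptor promoters and in 0 of 9 type 1 promoters, where 8, 18 and 12 genes were looked up. The 3 matches are shown with up to 12 bases on either side because they lie in granule genes described above, with the core or its reverse complement in capitals and the strand of the gene printed.
Gzma, chr13:113101044-113101073, minus strand: ttttccagctctACACCTggacatttgaaa
Nkg7, chr7:43437112-43437137, plus strand: agggggtagggaAGGTGTgagaagaa
Prf1, chr10:61297800-61297829, plus strand: cattgacaacgcAGGTGTccccctgggctt
The cores began 80, 14 and 24 bases before the RefSeq start of Gzma, Nkg7 and Prf1. GENCODE M21 starts Nkg7 further upstream, at chr7:43437073, so by that annotation the stretch shown for Nkg7 lies inside the gene. These are matches of letters, and no binding was measured.

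The rule leaves out T cells with Cd8a or Cd8b1 UMIs. The 59 such cells that met its other conditions, 15, 8, 18 and 18 in the 4 libraries, were compared with the members. Of 4205 genes tested, 5 (0.119%) were higher and 3 (0.0713%) lower in the members, and 443 had an unadjusted p under 0.05. Higher were Rora (2.10, adjusted p = 0.0233), Maf (1.89, adjusted p = 0.0308), Tnfrsf18 (1.73, adjusted p = 0.0462), Crem (1.44) and Gna13 (1.16). Maf and Rora are transcription factors of NKT17 and helper T cells, and Tnfrsf18 encodes the costimulatory receptor GITR. Lower were Dapl1 (-3.30, adjusted p = 0.0233), Gzma (-1.86, adjusted p = 0.0443) and Rfc2, a replication factor (-1.79, adjusted p = 0.0485). All 8 differed in the same direction in all 4 libraries.

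The members were not uniform. The following splits use detection of a gene in a cell, which depends on depth, and are descriptions of cells pooled over libraries with no test. The 38 members with a Cxcr6 UMI (15, 1, 9 and 13 in library order) had a median of 7176.5 UMIs, against 6578 in the other 77. Eomes was at 14.8 CPM in them and 83.3 CPM in the rest, and Gzma at 254 and 901 CPM. In the other direction lay Icos, a costimulator, at 372 and 100 CPM, Cxcr3 at 210 and 85.0 CPM, and Gata3 at 204 and 71.4 CPM. Zbtb16 was detected in 8 of the 38 and in 4 of the 77. Icos, Cxcr3 and Gata3 were thus at a higher CPM in the cells with a Cxcr6 UMI, and Eomes and Gzma in the cells without one.

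The 23 members with an Ncr1 UMI, itself a gate gene, came mostly from DPBS WT (14, 3, 2 and 4), so the pooled values also mix libraries. Gzma was at 2332 CPM in them and 216 CPM in the other 92, Prf1 at 249 and 41.1 CPM, and Tyrobp at 993 and 349 CPM. Cxcr3 was at 56.0 and 151 CPM and Cxcr6 at 50.9 and 173 CPM. Ccr7, low in NK cells, was at 153 and 80.8 CPM and Cd4 at 61.1 and 46.6 CPM. Granule genes and the adaptor were thus at a higher CPM in the cells with an Ncr1 UMI, and so were these T cell genes. The 21 members with a Cd4 UMI had Nkg7 at 386 CPM against 1220 CPM in the other 94 and Ccl5 at 3050 against 9872 CPM, while Ccr7 was at 217 against 51.6 CPM. Gzma was at 788 against 620 CPM, Ifng at 293 against 276 CPM and Tyrobp at 547 against 463 CPM. They were detected in 3, 8 and 9 of the 21 and in 19, 47 and 52 of the 94. Gzmb was at 48.2 against 270 CPM, Prf1 at 68.3 against 91.5 CPM and Xcl1 at 153 against 600 CPM. Klrd1 was at 145 against 338 CPM and Klrk1 at 177 against 426 CPM. Most effector genes given here were thus at a lower CPM in the cells with a Cd4 UMI, apart from Gzma, Ifng and Tyrobp.

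The effect of papain was read as the ratio of CPM between papain and DPBS libraries within a genotype, over genes with at least 30 UMIs in both libraries together and UMIs in at least 10 members. In WT members 203 of 2872 genes (7.07%) were more than 2-fold higher after papain and 76 (2.65%) more than 2-fold lower. The median log2 ratio of all these genes was 0.16, and after TMM scaling the counts were 128 and 117, so the excess of higher genes depended on the scale. The counting interval left out 0 for 189 of the higher (6.58% of the genes) and 62 of the lower (2.16%). In KO members 42 of 1271 genes (3.3%) were higher and 34 (2.68%) lower, of which 33 (2.6%) and 30 (2.36%) had such an interval. The UMIs of 1 cell are not independent, so the counting intervals beside the ratios are narrower than the error between animals would be.

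Ifng was higher in the papain library of both genotypes. It had 54 UMIs (146 CPM) in DPBS WT and 84 (309 CPM) in Papain WT, a log2 ratio of 1.08 (0.57 to 1.60), and 16 UMIs (133 CPM) in DPBS KO and 106 (638 CPM) in Papain KO, a ratio of 2.26 (1.49 to 3.12). The share of members with an Ifng UMI was 42.9% and 39.4% in WT and 47.1% and 69.6% in KO, so in WT the higher level came with no larger share of positive cells. In T cells without NK receptors Ifng was at 47.5, 17.9, 29.1 and 29.6 CPM in library order. Gzmb, granzyme B, was at 75.9 and 313 CPM in WT and at 108 and 416 CPM in KO before and after papain, ratios of 2.04 (1.41 to 2.71) and 1.94 (1.07 to 2.92). A single cell gave 49.4% of the Papain WT and 55.1% of the Papain KO Gzmb UMIs.

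In WT members, genes higher after papain included H2afx, a histone variant that marks DNA breaks, with 11 UMIs in DPBS WT and 79 in Papain WT (log2 ratio 3.28, 2.37 to 4.34), Rad21 of cohesin (2.56, 1.63 to 3.60) and Lmnb1 of the nuclear lamina (2.36, 1.49 to 3.33). Acsbg1, an acyl-CoA synthetase, had 4 and 36 UMIs (3.61, 2.13 to 5.56), and Atp2b4, a calcium pump, 8 and 45 (2.93, 1.83 to 4.23). For these 5 genes the single highest cell held 28.8% to 49.4% of the Papain WT UMIs, and H2afx and Lmnb1 were at 1.54 and 1.45 as a mean over cells. Rora, at 160 CPM in DPBS WT and 559 CPM in Papain WT, gave 1.81, and Icos, at 138 and 379 CPM, gave 1.45. Lower after papain were Cd83, an activation marker of dendritic and B cells that T cells also make (2 UMIs against 29, -3.42, -6.53 to -1.43), Colgalt1, a collagen galactosyltransferase (-2.26, -4.24 to -0.73), and Atf3, a stress-induced transcription factor (-2.12, -3.14 to -1.23, and -1.22 without cells with UMIs of other cell types). Csf2ra and H2-DMa, genes of myeloid and antigen-presenting cells, were at -2.10 and -2.37, and at -0.18 and 0.24 without those cells.

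In KO members the largest ratio was that of Cxcr6, with 1 UMI in DPBS KO and 51 in Papain KO (8.33 and 307 CPM, log2 ratio 5.20, 2.66 to 10.54). Hspa1b, an inducible heat shock protein, had 17 and 175 UMIs (2.90, 2.18 to 3.71), Arid1a, a chromatin remodelling subunit, 4 and 33 (2.58, 1.08 to 4.53), and S100a4, a calcium-binding protein of motile cells, 7 and 37 (1.93, 0.75 to 3.34). Heat shock genes also respond to tissue dissociation, and in KO T cells without NK receptors Hspa1b was at 320 CPM after DPBS and 859 CPM after papain. The part of dissociation in this result was not tested. Lower after papain were Tuba4a, a tubulin (-1.82, -3.12 to -0.66), Zfp36, which degrades cytokine mRNAs (-1.69, -2.50 to -0.93), Cyb5a (-1.59, -2.77 to -0.51), Prkca (-1.47, -2.47 to -0.53) and Ubap2l (-1.47, -2.73 to -0.31). The type 1 list had a median of 0.64 over 8 genes in KO, beside -0.02 for all counted genes. Of the 8, 1 was more than 2-fold higher, beside 3.3% of all counted genes. At any fold, 4 of the 8 had an interval above 0, a share not given for all genes. In WT the median of the type 1 list over 11 genes was 0.08, beside 0.16 for all.

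KO and WT members were compared within each treatment. After DPBS 97 of 2140 genes (4.53%) were more than 2-fold higher in KO and 105 (4.91%) lower, or 55 and 137 with TMM scaling, on only 17 KO cells. The interval left out 0 for 87 (4.07%) and 56 (2.62%). After papain 46 of 2088 genes (2.2%) were higher in KO and 143 (6.85%) lower, with intervals that left out 0 for 42 (2.01%) and 121 (5.8%). As a mean over cells 39 (1.87%) were higher and 106 (5.08%) lower.

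After DPBS, Cxcr6 had 1 UMI in KO and 52 in WT (log2 ratio -4.08, -9.41 to -1.54), and it was detected in 1 of 17 KO and in 15 of 42 WT members. S100a4 had 7 and 195 UMIs (-3.18, -4.51 to -2.11), and Tmem176b, a type 17-associated membrane protein, 2 and 60 (-3.29, -6.37 to -1.37). The single highest cell held 35.4% of the S100a4 and 46.7% of the Tmem176b UMIs of DPBS WT. Ahcyl2 and Vapb had 1 UMI each in KO and 29 each in WT (-3.24, -8.59 to -0.65 for each). Higher in KO were Relb, an NF-κB subunit (24 UMIs against 17, 2.12, 1.16 to 3.105), Sdhaf1, an assembly factor of succinate dehydrogenase (1.92, 0.93 to 2.94), Gnai3 (1.88, 0.81 to 2.97), Man1a (1.81, 0.68 to 2.96) and Glul, glutamine synthetase (1.71, 0.63 to 2.79). The naive T cell list had a median of 0.55 over 8 genes, beside 0.03 for all counted genes. Of the 8, 2 were more than 2-fold higher in KO, beside 4.53% of all counted genes. At any fold, 4 of the 8 had an interval above 0, a share not given for all genes.

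After papain, Cxcr6 lay the other way, with 51 UMIs in KO and 32 in WT (307 and 118 CPM, log2 ratio 1.38, 0.72 to 2.07). Ifng was also higher in KO (1.05, 0.62 to 1.48), and so was Ccl5 (0.95, 0.86 to 1.04). Socs2, a suppressor of cytokine signalling, had 23 UMIs in KO and 7 in WT (2.43, 1.16 to 3.89), and Klra9, Litaf, Slc50a1 and Ppp1r11 gave 1.53, 1.46, 1.45 and 1.43. Capn2, a calpain protease, was lower in KO (1 UMI against 32, -4.29, -9.64 to -1.71), as were Ddit4, a stress-induced inhibitor of mTORC1 (2 against 43, -3.72, -6.81 to -1.77), Ass1 of arginine synthesis (-2.54, -4.04 to -1.33) and Sla2, an adaptor that dampens receptor signals (-2.24, -4.21 to -0.74). Vim, the intermediate filament vimentin, had 48 and 400 UMIs (-2.35, -2.81 to -1.91), and -1.29 as a mean over cells. For Capn2, Ddit4, Ass1, Sla2 and Vim the single highest cell held 25.8% to 46.25% of the Papain WT UMIs. Rora and Icos, which were high in Papain WT, gave -1.78 and -1.98. In T cells without NK receptors Rora was at 186 CPM in WT and 88.1 CPM in KO after papain.

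**Figure D5:**
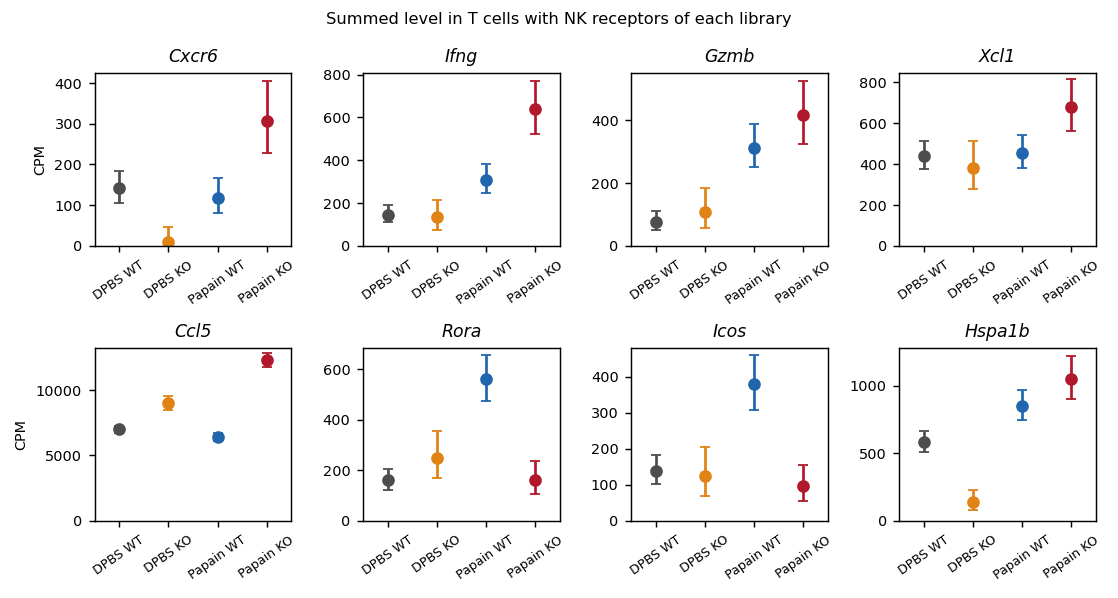
Levels of selected genes in T cells with NK receptors in the 4 libraries, in CPM with 95% counting intervals. Ifng is highest in Papain KO (638), Rora and Icos in Papain WT (559 and 379), and Cxcr6 is near 0 in DPBS KO (8.33, from 1 UMI) beside 118 to 307 in the other libraries.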

How the data were processed

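Per the file headers and labels, the authors made 10x Genomics 3′ v3 libraries, aligned them with Cell Ranger to mm10 (processing notes of the submitters) and deposited UMI counts per gene and barcode for called cells. The study names a Cell Ranger version for its sorted CD4+ T cell libraries, the version used for these lung libraries is not given in the sources used here, and the matrices name software version 3.1.0. Barcodes with more than 200 genes and under 15% mitochondrial UMIs were kept, and doublets called by Scrublet (scanpy 1.11.5, Python 3.11.15) were removed only in an alternative. The members and gene lists were chosen with earlier results of these data known.

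T cells without NK receptors met the rule with neither Klrb1c nor Ncr1. NK cells carried Klrb1c or Ncr1 and no UMI of the T or B cell genes of the rule. Counts were summed over 3 populations and 4 libraries and tested with edgeR 4.0.16 (R 4.3.3, TMM, quasi-likelihood test, Benjamini-Hochberg adjustment, library as a block, low counts filtered by filterByExpr). Each group held 1 library, so groups were compared as ratios of CPM with exact 95% conditional intervals, with no test. DESeq2 1.42.0 was an alternative. Named genes were the 8 per direction with the largest significant fold change in all 4 libraries, the 5 per direction with the largest ratio between libraries (no cell over 50% of the UMIs of the higher library), and the listed genes, of which a few are not reported here. Where an NK or T cell sum was 0, folds used a floor of 3 UMIs over the 4 libraries.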

Additional observations from a re-analysis of the deposited data

Results flagged for a closer look

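The KO to WT ratio of 2 genes lay in opposite directions after DPBS and after papain, and the difference itself was not tested, since each group held 1 library. For Cxcr6 the log2 ratio was -4.08 after DPBS and 1.38 after papain, a difference of 5.46. The DPBS KO value rests on 1 UMI in 17 members. In T cells without NK receptors Cxcr6 was at 24.8, 20.6, 68.9 and 43.0 CPM in library order, with both KO libraries below their WT library. For Hspa1b the ratio was -2.04 (-2.85 to -1.33) after DPBS and 0.30 (0.01 to 0.59) after papain, a difference of 2.35. The papain ratio of Hspa1b was -0.38 when at least 2 NK receptor UMIs were required. Both genes were found by this pattern among the named genes, on counting intervals that leave out the variation between mice.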

How the results depend on the processing

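Between groups no paired analysis was possible because each group held 1 library and the labels carry no replicate numbers. For the same reason no library could be left out of a comparison between groups. The settings without cells with UMIs of other cell types and without the deepest member of each library were chosen after seeing the data. Among genes named in the population comparisons, 1564 values kept direction and call, 73 were no longer called and 22 became called. In the ratios between libraries 1047 values moved by less than their counting interval and 76 by more.

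The share of members fell to 0.163%, 0.0898%, 0.181% and 0.230% in library order when cells were thinned to 2000 UMIs, and was 1.22%, 0.783%, 1.03% and 0.955% per cell with a Cd3 UMI. With at least 2 NK receptor UMIs it was 0.332%, 0.140%, 0.238% and 0.298%, which puts Papain KO above Papain WT. The log2 ratio of shares for Papain KO against DPBS KO went from 0.44 to 1.09 with 2 NK receptor UMIs and to 1.36 when thinned, with intervals that held 0. The genes lower than in other T cells numbered 420 without a low-count filter, 118 without the library block and 97 to 202 with a library left out, 97 without DPBS KO and 133 without Papain KO. Without cells with UMIs of other cell types, 216 genes were lower than in NK cells.

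For Papain WT against DPBS WT the genes higher were 114 with 2 NK receptor UMIs, 128 with TMM and 77 with at least 60 UMIs, and the genes lower 49 without Scrublet doublets, 50 with Klrb1c only, 40 without cells of other-type UMIs, 117 with TMM and 26 with 60 UMIs. For Papain KO against DPBS KO, 12 were higher and 8 lower with 60 UMIs, and 17 lower with 2 NK receptor UMIs. For DPBS KO against DPBS WT, 52 were higher with 2 NK receptor UMIs, 55 with TMM and 23 with 60 UMIs, and 59 were lower without cells of other-type UMIs and 29 with 60 UMIs. For Papain KO against Papain WT, 28 were higher without the deepest members and 13 with 60 UMIs, and 62 were lower with 2 NK receptor UMIs and 54 with 60 UMIs. A higher minimum leaves fewer genes to count, and for the other settings the cause was not tested.

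Besides the ratios of shares, these values changed sign. For ratios of genes between libraries, a change of sign was looked for only where the main interval left out 0. Cd44 against other T cells turned from -0.01 to 0.22 without doublets, 0.052 with 2 Trac and Cd3 UMIs, 1.20 without cells of other-type UMIs, 0.12 without the deepest members, and ranged from -0.172 to 0.0735 with a library left out (0.0163, 0.0735 and 0.0502 without DPBS WT, DPBS KO and Papain WT). Cd44 against NK cells turned to 0.53 without cells of other-type UMIs. Ccl5 in Papain WT against DPBS WT was 0.00414 without the deepest member and 0.037 as a mean over cells, H2-DMa 0.24 without cells of other-type UMIs and S100a4 -0.24 as a mean over cells. Hspa1b in Papain KO against Papain WT was -0.38 with 2 NK receptor UMIs. The small number of members, 17 in DPBS KO, limits every ratio between libraries.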

Other observations

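Further lists were compared between the members and other T cells, where 5.96% of all genes tested were called higher and 4.41% lower, with a median of -0.01. Of 11 tested metabolic genes that the study names, 1 was higher in the members and none lower, namely Slc2a1, the glucose transporter GLUT1 (log2 1.38, SE 0.31, edgeR adjusted p = 0.00786), and the list's median was -0.06. Without DPBS WT Slc2a1 was not called (1.10, adjusted p = 0.124). Of 5 interferon-stimulated genes 2 were lower and none higher, among them Ifi27l2a at -1.27 (SE 0.37, adjusted p = 0.0392), and the list's median was -0.29. Of 9 heat shock and dissociation genes 1 was lower, and none of 5 cell cycle genes was called. Of 12 residence and early activation genes 4 were higher and 1 was lower, with Nr4a3, induced by receptor signals, at 0.67 (SE 0.18, adjusted p = 0.0293), a call lost without DPBS WT, DPBS KO or Papain KO (adjusted p = 0.123, 0.151 and 0.071). The study gives the metabolic genes as lower in stimulated IFT20-KO than WT CD4+ T cells, a comparison other than this one. Between KO and WT members, 8 of them counted after papain had a median log2 ratio of -0.41, beside -0.08 for all genes counted. Of the 8, 2 were more than 2-fold lower in KO, beside 6.85% of all. After DPBS, 9 had a median of -0.21, beside 0.03, and none was past 2-fold. These ratios were not tested.

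Tcrg-C2, a gamma chain constant region gene, had 46 UMIs in the members, which carry no Trdc UMI by the rule, and 174 in T cells without NK receptors, a log2 ratio of 3.05 with a counting interval of 2.55 to 3.52. In the other T cells 107 of the 174 came from DPBS WT. NK cells had none.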
